A study of Mus musculus with 2 samples.

Results

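Potassium channel genes, taken as every protein-coding gene of the mouse whose symbol starts with Kcn, were examined for binding of Otp (Orthopedia, a homeodomain transcription factor) in the paraventricular nucleus of the hypothalamus (PVN). The rule gave 94 of 21887 protein-coding genes on nuclear chromosomes. They fell by symbol into 40 voltage-gated genes, 15 inward rectifier genes, 14 two-pore genes, 8 calcium-activated genes with their Slo relatives, and 17 genes for auxiliary subunits and regulators. The study used CUT&RUN, in which an antibody tethers a nuclease to a chromatin protein and the released DNA is sequenced. Nuclei of the adult PVN of wild-type (WT) mice, labelled as neurons, gave 1 library with an Otp antibody and 1 library with IgG, a control antibody without a target. Each antibody has a single library, so no value below is backed by a replicate and samples could not be compared by a test. The labels do not give the number or sex of the animals behind a library.

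Potassium channels let potassium leave a cell, which sets its resting potential, repolarises action potentials and limits repetitive firing. Voltage-gated channels open on depolarisation, inward rectifiers and two-pore channels carry resting and G protein-controlled currents, and calcium-activated channels turn calcium entry into an afterhyperpolarisation. In the PVN such currents set the firing of neuroendocrine neurons, and the inward rectifier Kir7.1, encoded by Kcnj13, is known from mouse work to couple to the melanocortin receptor Mc4r, whose gene the study is about.

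The authors deposited 1 list of enriched regions per library, with 11379 Otp and 291 IgG regions. A region was counted at a gene end when its summit, the position of highest signal, lay within 1 kb of either end of the gene, and inside the gene when it lay in the gene farther than that from both ends. Fold enrichment and −log10 q are the authors' values at the summit, relative to their peak caller's background. The number of tags (reads or fragments) at a summit was worked out from these values. Total depth is unknown. Of 8 genes that mark PVN neurons, 3 had an Otp region at an end (Trh, Sim1 and Pou3f2), against 27.2% of all protein-coding genes. Avp, Oxt, Crh and Sst had none at an end or inside, and the Otp gene had none at an end but held an Otp and an IgG region inside. At an end, 3 of 6 general neuronal genes, 1 of 4 oligodendrocyte genes, 1 of 4 vascular or ependymal genes, and none of 4 astrocyte and 4 microglial genes had one. A list of bound regions does not measure expression, so the labelled cell type could not be checked from it.

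Otp regions were found at an end of 14 of the 94 potassium channel genes (14.9%, 95% binomial interval 8.39 to 23.7%), against 27.2% of all protein-coding genes. Gene length matters for such counts, so the share of all protein-coding genes was also weighted by decile of length to the lengths of the potassium channel genes. It was then 29.5%, which corresponds to 27.8 genes where 14 were found. Inside the genes no such gap was seen. There, 15 potassium channel genes (16.0%, 9.22 to 25%) held an Otp region, against 10.5% of all protein-coding genes and 16.7% at the same lengths. Intervals of shares treat genes as independent and cover counting error only. With an end and an inside region counted together, 26 of the 94 genes had at least 1 Otp region (27.7%), against 35.3% of all protein-coding genes and 42.3% at the same lengths. Only Kcnj10, Kcnab2 and Kcnq3 had both kinds.

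None of the 94 genes had an IgG region at an end or inside. The same was true of nearly all protein-coding genes, since 0.379% had an IgG region at an end, 0.228% inside and 0.603% at either place. None of the 36 Otp regions of potassium channel genes overlapped an IgG region. With 291 IgG regions beside 11379 Otp regions, few Otp regions of any gene could overlap one. The absence of overlap therefore does not set these genes apart. The genome background of the Otp library was 5.87 times that of the IgG library (0.512 against 0.0873 tags), so 23.5 Otp tags correspond to the 4 tags of the weakest IgG region whose tags could be worked out. Of the 36 regions 3 reached that level, among them those at the ends of Kcnn3 and Kcnab2. Scaled instead by the median ratio of tags at 226 regions of both lists (0.305), a setting chosen after the data were seen, the level was 13.1 tags, which Kcnj2 and 1 region in Kcnip1 also reached. At the remaining 31 regions a difference from IgG was not detectable at this depth by either scaling. Several of these had 13 tags, just below the second level, among them those at the ends of Kcna1, Kcna2, Kcnj9 and Kcnn1. This limit is one of the library and not of potassium channel genes. All Otp regions on nuclear chromosomes had a median of 13.0 tags and an upper quartile of 18.0, so most also lay below 23.5 tags.

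By class, the share of genes with an Otp region at an end ran from 0% to 26.7%. Inward rectifiers had one in 4 of 15 genes (26.7%, 7.79 to 55.1%), against 30.1% at the same lengths. Calcium-activated channels and their relatives had one in 2 of 8 genes (25%, 3.19 to 65.1%), against 30.4%. Voltage-gated channels had one in 7 of 40 genes (17.5%, 7.34 to 32.8%), against 30.1%. Two-pore channels had one in 0 of 14 genes, which allows a share of up to 23.2%, against 29.8%. Auxiliary subunits had one in 1 of 17 genes (5.88%, 0.149 to 28.7%), against 27.2%. The intervals of all 5 classes overlap one another, so no class was set apart from another at these numbers. Of the classes, two-pore channels were the one whose interval lay wholly below the share at the same lengths.

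**Figure D1:**
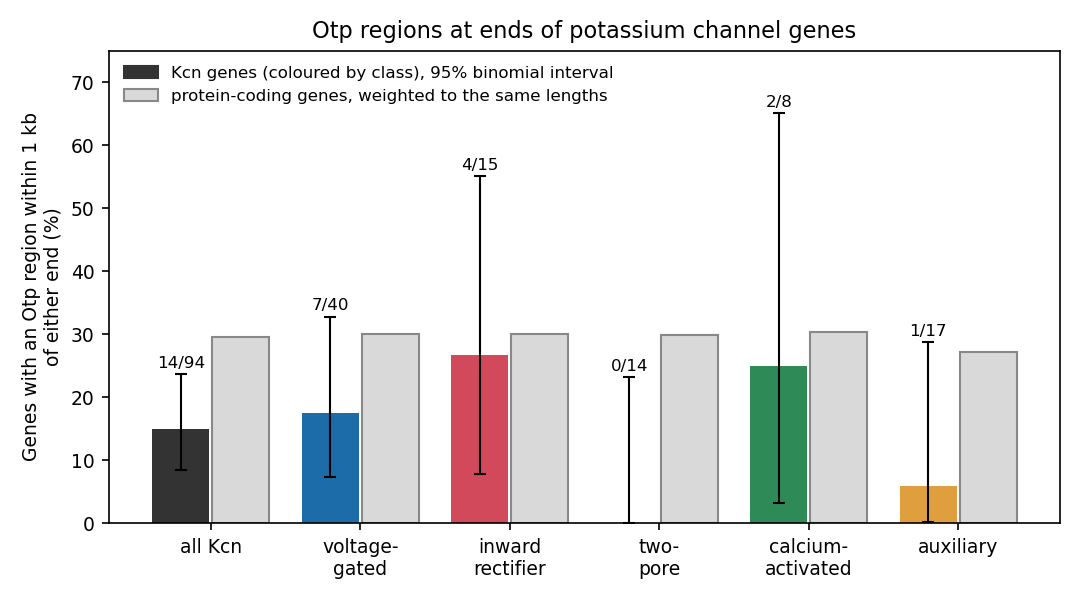
Share of potassium channel genes with an Otp region within 1 kb of either end, for all 94 genes and by class (coloured bars, with 95% binomial intervals and the counts above them), beside the share of protein-coding genes weighted to the same lengths (grey bars). All potassium channel genes stand at 14.9% beside 29.5%, and the two-pore class is at 0 of 14.

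Of the 7 end regions of the voltage-gated class, 4 were in the Kv1 family. The Kv1 (Shaker) family, whose channels shape axonal and dendritic excitability, had them in 4 of its 8 members (50%, 15.7 to 84.3%), Kcna1, Kcna2, Kcna4 and Kcna5, against 28.2% at the same lengths, which lies in the interval. The other 3 regions of the class were at Kcnd3 of the Kv4 family, Kcnh2 of the erg channels and Kcnq3 of the Kv7 family. The family was singled out after its values were seen.

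The promoters behind 7 of the 14 regions can be read directly, because the summit lay in the stretch that RefSeq (GRCm38.p6, the assembly that mm10 denotes) gives around a listed start. An eighth, of the non-coding gene Kcnq1ot1, belongs to a region inside Kcnq1. Each line below holds the 250 bases just before the start, 5′ to 3′ along the gene, and capitals mark the bases covered by the deposited Otp region. They are shown because the Otp library was enriched over the capitals, which cover 33 bases at Kcna4, 49 at Kcnj9, 79 at Kcnj10 and more at the others. At Kcna4 the summit lay 2 bp after the start, beyond the printed stretch.
Kcnn3, chr3:89519914-89520163, forward strand: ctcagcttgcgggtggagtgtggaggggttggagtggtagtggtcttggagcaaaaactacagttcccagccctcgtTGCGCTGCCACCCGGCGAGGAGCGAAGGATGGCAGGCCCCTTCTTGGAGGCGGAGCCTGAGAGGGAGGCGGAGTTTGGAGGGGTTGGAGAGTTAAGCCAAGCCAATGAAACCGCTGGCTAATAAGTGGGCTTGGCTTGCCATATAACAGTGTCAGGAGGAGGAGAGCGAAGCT
Kcnab2, chr4:152477550-152477799, reverse strand: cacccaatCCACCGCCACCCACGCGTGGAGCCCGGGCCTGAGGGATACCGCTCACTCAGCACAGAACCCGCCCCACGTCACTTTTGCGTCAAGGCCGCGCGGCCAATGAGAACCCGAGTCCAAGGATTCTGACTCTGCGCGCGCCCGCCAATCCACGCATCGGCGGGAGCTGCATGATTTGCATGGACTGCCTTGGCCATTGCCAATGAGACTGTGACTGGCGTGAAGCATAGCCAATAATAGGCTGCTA
Kcnj2, chr11:111065914-111066163, forward strand: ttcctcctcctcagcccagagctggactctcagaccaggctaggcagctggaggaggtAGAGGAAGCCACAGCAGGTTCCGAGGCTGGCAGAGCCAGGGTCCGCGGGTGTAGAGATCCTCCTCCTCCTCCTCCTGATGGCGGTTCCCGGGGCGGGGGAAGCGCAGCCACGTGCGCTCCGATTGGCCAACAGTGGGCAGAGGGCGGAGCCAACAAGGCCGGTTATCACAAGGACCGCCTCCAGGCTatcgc
Kcnj10, chr1:172340960-172341209, forward strand: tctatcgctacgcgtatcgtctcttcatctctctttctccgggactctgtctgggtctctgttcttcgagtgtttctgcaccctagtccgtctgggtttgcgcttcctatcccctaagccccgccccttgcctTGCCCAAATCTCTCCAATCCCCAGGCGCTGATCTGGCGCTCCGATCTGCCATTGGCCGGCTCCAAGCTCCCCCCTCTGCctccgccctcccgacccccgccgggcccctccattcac
Kcnj9, chr1:172329323-172329572, reverse strand: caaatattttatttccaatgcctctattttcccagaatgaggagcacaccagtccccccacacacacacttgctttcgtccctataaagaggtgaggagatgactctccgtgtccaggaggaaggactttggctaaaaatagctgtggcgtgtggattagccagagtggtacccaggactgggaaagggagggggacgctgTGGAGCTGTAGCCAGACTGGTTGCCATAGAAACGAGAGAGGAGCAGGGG
Kcna4, chr2:107290339-107290588, forward strand: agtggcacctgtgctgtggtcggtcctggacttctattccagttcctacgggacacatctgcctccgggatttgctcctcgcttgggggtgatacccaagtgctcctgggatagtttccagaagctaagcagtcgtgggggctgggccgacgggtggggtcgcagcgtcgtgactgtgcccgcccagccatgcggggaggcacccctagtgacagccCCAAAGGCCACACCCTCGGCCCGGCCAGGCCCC
Kcna5, chr6:126535556-126535805, reverse strand: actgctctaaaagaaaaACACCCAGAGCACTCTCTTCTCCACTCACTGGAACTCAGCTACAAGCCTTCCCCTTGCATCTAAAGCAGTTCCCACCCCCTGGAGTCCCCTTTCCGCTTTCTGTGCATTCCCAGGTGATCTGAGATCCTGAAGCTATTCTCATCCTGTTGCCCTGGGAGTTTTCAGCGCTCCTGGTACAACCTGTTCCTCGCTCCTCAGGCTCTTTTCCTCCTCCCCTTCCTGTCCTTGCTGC
Kcnq1ot1, chr7:143296548-143296797, reverse strand: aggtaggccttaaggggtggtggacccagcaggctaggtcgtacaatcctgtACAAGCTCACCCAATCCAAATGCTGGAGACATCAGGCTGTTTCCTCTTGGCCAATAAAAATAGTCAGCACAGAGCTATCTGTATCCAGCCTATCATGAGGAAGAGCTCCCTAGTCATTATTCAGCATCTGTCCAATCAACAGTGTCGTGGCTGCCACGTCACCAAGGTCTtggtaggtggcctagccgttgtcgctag

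TAATTA, a homeodomain motif built on the shorter core TAAT, was in none of these 8 stretches. TAAT alone was not counted, and it does occur, for example in the capitals of Kcnn3. TAATTA reads the same on both strands. It was found in 4.84% of all 32851 promoter stretches of this length and in 1.94% of the 4649 that held an Otp summit. The pentamer CCAAT, on either strand, was looked for after the sequences had been read. It was in 6 of the 8 stretches: Kcnab2 had 5 matches, 4 of them in capitals, Kcnq1ot1 had 3 and Kcnj10 had 2, all in capitals, and Kcnn3 and Kcnj2 had 1 each in capitals. The 1 match of Kcnj9 lay outside the region, and Kcna4 and Kcna5 had none. Of all promoter stretches, 33.8% held CCAAT, and of those with an Otp summit 53.7% did, with 72.8% among the 848 whose −log10 q was at least 20. The GC box GGGCGG, on either strand, was in the stretches of Kcnj2 (2 matches), Kcnj10 (2), Kcnab2 (1) and Kcna4 (1). It was in 32.7% of all stretches and in 68.7% of those with an Otp summit, with 78.4% among the same 848. Base composition moves with these shares, and its part in them was not tested. In CpG dinucleotides the 8 stretches ran from 3 at Kcna5 to 20 at Kcnab2, around a median of 6 over all stretches. A match is a run of letters and not a site in use.

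Among calcium-activated channels, Kcnn3 carried the strongest region at an end of any potassium channel gene. Kcnn3 encodes SK3, a small-conductance channel that slows repetitive firing after calcium entry. Its region (chr3:89519991-89520200, 210 bp wide) had 28 tags at the summit (95% Poisson interval 18.6 to 40.5), a fold enrichment of 11.9 and a −log10 q of 22.5. The summit lay 92 bp before the gene's start, and the region ranked 693 of 5527 at protein-coding gene ends. Kcnn1, which encodes SK1, had a weaker region (chr8:70865506-70865827) with 13 tags (6.92 to 22.2), a fold enrichment of 5.49 and a −log10 q of 5.37, with the summit 80 bp outside its outermost start. The intervals of the tags at Kcnn3 and Kcnn1 overlap. Kcnn2 (SK2) and Kcnn4, the intermediate-conductance channel, had no Otp region, and the nearest summits were 161859 and 14369 bp away. Nor was there one at an end of the large-conductance channel Kcnma1, the sodium-activated channels Kcnt1 and Kcnt2 or Kcnu1, a channel of sperm. Kcnt2 lay farther from an Otp summit than any other potassium channel gene, at 823481 bp.

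Of the auxiliary genes, Kcnab2 alone had a region at an end. It encodes a Kv beta subunit that binds Kv1 channels in the cytoplasm. The region (chr4:152477471-152477791, 321 bp) had 28 tags (18.6 to 40.5), a fold enrichment of 11.2 and a −log10 q of 21.3, with its summit 96 bp before the start. An end of Nphp4, a gene of the primary cilium, lay 939 bp from the same summit. This was the single one of the 14 regions with an end of another protein-coding gene within 1 kb, and in none of the 14 was another gene's end the nearer one. The shares of all gene-end regions with such neighbours are not given here. Giving each region to its nearest gene alone lowered the share of all protein-coding genes with an end region from 27.2% to 23.8%. The 14 potassium channel genes kept theirs. The other Kv beta genes, Kcnab1 and Kcnab3, had no region at an end. The same held for all 4 KChIP genes, 5 MinK-related genes and 4 BK beta genes.

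Of the inward rectifiers, 4 had a region at an end. Kcnj2 encodes Kir2.1, a strong rectifier that holds the resting potential. Its region (chr11:111065972-111066158) had 21 tags (13.0 to 32.1), a fold enrichment of 10.8 and a −log10 q of 16.9, with the summit 88 bp before the start. Kcnj9 encodes the G protein-gated subunit GIRK3, and Kcnj10 encodes Kir4.1, best known from astrocytes and other glia. These genes lie 11887 bp apart on chromosome 1, transcribed away from each other, and each had its own region. The region at Kcnj10 (chr1:172341093-172341171) had 12 tags (6.20 to 21.0) and that at Kcnj9 (chr1:172329299-172329371) had 13 tags (6.92 to 22.2). The intervals of these tags overlap, so the levels of this pair did not differ beyond counting error. The summits lay 84 bp before the Kcnj10 start and 36 bp before the Kcnj9 start. Kcnj11 encodes the pore of the ATP-sensitive channel, through which glucose and drugs of the sulfonylurea class act. Its region (chr7:46100798-46100915) had the fewest tags and the lowest −log10 q of the 14, with 10 tags (4.80 to 18.4), a fold enrichment of 5.82 and a −log10 q of 5.01.

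Kcnj13 itself had no Otp or IgG region at an end or inside, and the nearest Otp summit was 57782 bp away. The other G protein-gated subunits, Kcnj3, Kcnj5 and Kcnj6, had none either, with the nearest summits at 95268, 11909 and 20539 bp. Kcnj8, the other pore of ATP-sensitive channels, had none, with the nearest summit at 56795 bp.

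Among the voltage-gated genes all 7 end regions were weak, with 11 to 13 tags and fold enrichments of 5.72 to 7.55. Kcna1 encodes Kv1.1, a channel of axons and nerve terminals. Its region (chr6:126645825-126645903) had 13 tags (6.92 to 22.2) and a summit 49 bp outside the upper end. Kcna5, at 100907 bp from Kcna1 on the same chromosome, had a region of 11 tags (5.49 to 19.7) with its summit 7 bp before the start (chr6:126535523-126535788). Kcna6 lies on the other side of Kcna1 and had none, with the nearest summit at 5975 bp. Kcna4, a channel with fast inactivation, had 11 tags (5.49 to 19.7) with the summit 2 bp into the gene (chr2:107290556-107290646). Kcna2, which pairs with Kv1.1, had 13 tags (6.92 to 22.2) at its far end, 442 bp inside the gene (chr3:107114513-107114608). Its neighbours were Kcna3, with no region, and Kcna10, with a region inside.

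Kcnd3, which encodes Kv4.3 of the A-type current, had 11 tags (5.49 to 19.7) beyond its far end (chr3:105674723-105674823), with the summit 773 bp outside the gene. It was the region nearest to the 1 kb bound from within. The nearest beyond the bound were summits 1122 bp outside Kcnh6 and 1346 bp outside Kcnd2, and of those inside a gene the second region of Kcnj10, 1840 bp from an end. Kcnh2, an erg channel that also repolarises the heart, had 12 tags (6.20 to 21.0) with the summit 112 bp outside its outermost start (chr5:24351746-24351822). Kcnq3, a subunit of the M-current that acetylcholine suppresses, had 11 tags (5.49 to 19.7) with the summit 187 bp outside its upper end (chr15:66286571-66286831). Kcnq5 of the same family had no region. Other channels of central neurons without an end region were Kcnc1 and Kcnd2. For Kcnc1 a summit lay 3001 bp beyond an end.

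**Figure D2:**
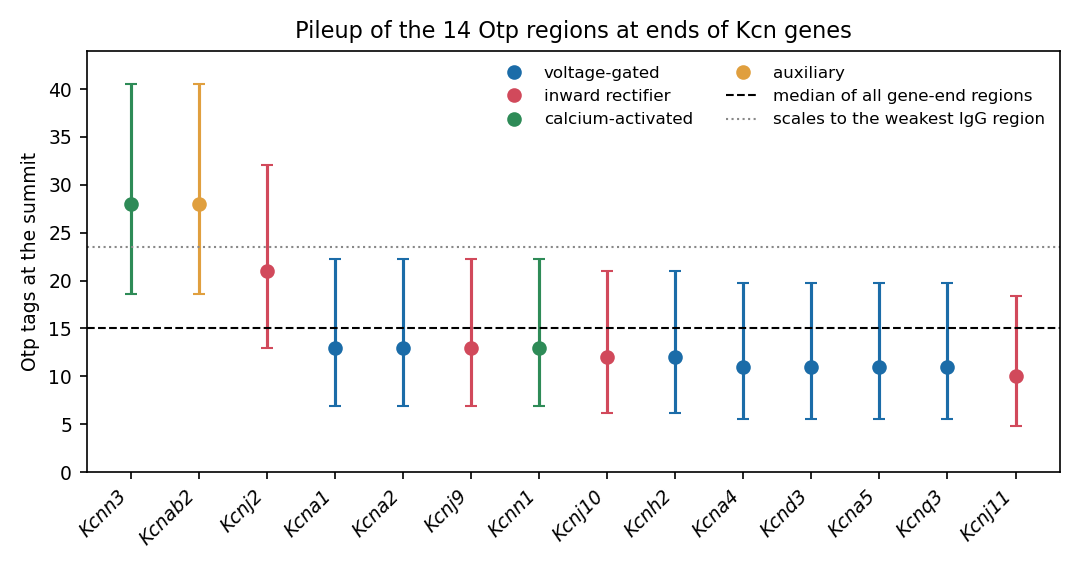
Tags at the summit of each of the 14 Otp regions at ends of potassium channel genes, with 95% Poisson intervals for counting error and colours for the class. The dashed line is the median of all 5527 regions at protein-coding gene ends (15.0 tags) and the dotted line is the level that corresponds to the weakest IgG region (23.5 tags). Kcnn3, Kcnab2 and Kcnj2 stand above the dashed line, and the other 11 lie at 10 to 13 tags.

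The median end region of a potassium channel gene was weaker than that of all protein-coding genes, a difference with no test. Their median was 12.5 tags (range 10 to 28) against 15.0 tags at all protein-coding gene ends, and their median −log10 q was 7.08 against 9.34. In −log10 q, 11 of the 14 lay below the median of all gene ends. A −log10 q of at least 10 was reached by 3 of the 14 (21.4%) and by 45.7% of all gene-end regions. Their median width was 109.5 bp against 167 bp.

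Most summits lay close to the end of the gene. The summit lay within 100 bp of the gene's end in 10 of the 14 (71.4%), against 57% of all 5527 gene-end regions, and outside the gene in 11 of the 14 (78.6%), against 66.1%. Where RefSeq listed a strand, 9 regions lay at the end where transcription starts and 2 at the far end. Of the 9, 7 lay close to a start in the promoter table, while those at Kcnn1 and Kcnh2 lay at −2513 and −22205 bp from the nearest start listed there (negative, upstream). For Kcna1, Kcnj11 and Kcnq3 no strand was listed in the table used. Over the 69 potassium channel genes with a listed strand, 9 had an Otp region at the start (13.0%), against 27.3% of all protein-coding genes with one.

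**Figure D3:**
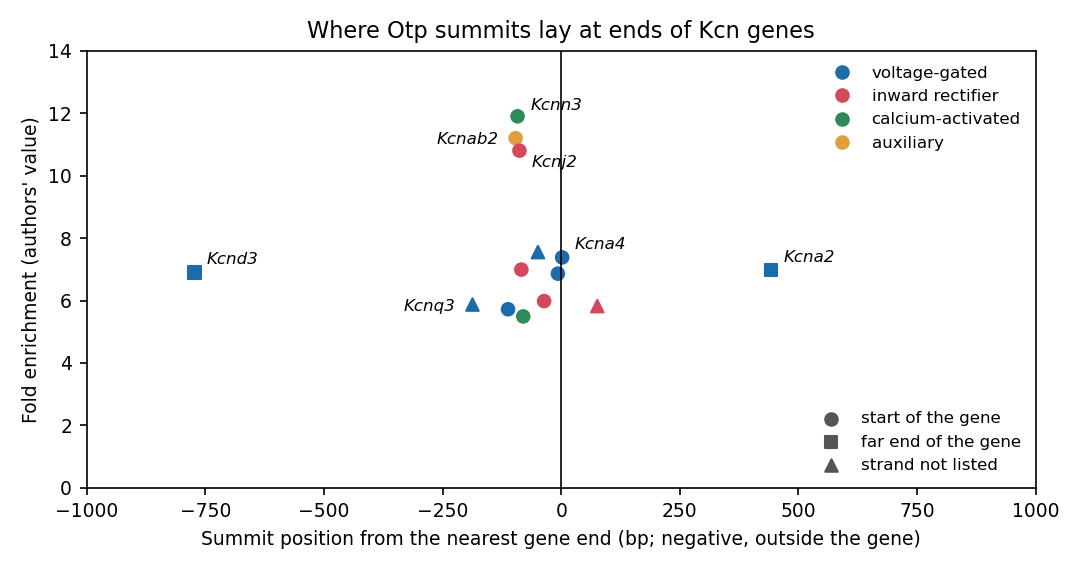
Summit position of the 14 end regions, in bp from the nearest end of the gene (negative values lie outside the gene), against the authors' fold enrichment. Colours give the class and marker shapes the kind of end. Kcnn3, Kcnab2 and Kcnj2 lie at 88 to 96 bp outside the start with fold enrichments of 10.8 to 11.9, while the other 11 have 5.49 to 7.55 and most lie close to 0.

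Inside the genes, 22 Otp regions were spread over 15 genes. They came to 2.10 per Mb of gene interior (95% Poisson interval 1.31 to 3.17), against 3.09 per Mb in all protein-coding genes and 2.77 per Mb at the same lengths, which lies in the interval. By class, 8 voltage-gated genes held 11 regions, 3 auxiliary genes held 7, 2 two-pore genes held 2, and 1 inward rectifier and 1 calcium-activated gene held 1 each. At the same lengths, the shares of all protein-coding genes correspond to 7.19 voltage-gated, 2.62 auxiliary, 1.87 two-pore, 1.86 inward rectifier and 2.12 calcium-activated genes. Long genes held most of them. The longest decile of protein-coding genes took in 23 potassium channel genes, and these held 17 of the 22 regions. A region was held by 10 of the 23, where 41.4% of all protein-coding genes in that decile held one. From both ends, 19 of the 22 were over 10 kb away and 10 were over 100 kb away. The shares of all inside regions at these distances are not given here.

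A −log10 q of at least 10 was reached by 3 of the 22 regions (13.6%), against 23.3% of all regions inside protein-coding genes. Among them were 1 of the 3 regions in Kcnip1, with 17 tags (9.90 to 27.2) and a −log10 q of 10.3, and that in Kcna10, a Kv1 gene, with 13 tags (6.92 to 22.2) and a −log10 q of 10.1. The median inside region had 10 tags, against 11.0 in all genes.

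In the auxiliary class, Kcnip1 and Kcnip4 held 3 regions each, the highest number of any member, where genes of their length correspond to 0.928 and 2.90 regions. Both encode KChIP proteins, calcium sensors that bind Kv4 channels. Kcnip4 spans 1135620 bp and is the longest of the 94 genes, and its regions had 9 to 11 tags. Kcnip1 spans 364010 bp, and its regions had 10 to 17 tags. Kcnmb1, a BK beta gene that lies within the span of Kcnip1, held none of them. Kcnip2 and Kcnip3 (DREAM, a KChIP that also acts in the nucleus) had no region. The third auxiliary gene was Kcnab2, with a second region of 7 tags (2.81 to 14.4).

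Among voltage-gated genes, Kcnh1, Kcnb2 and Kcnq3 held 2 inside regions each. Kcnh1 is an eag channel, and its regions had 12 and 13 tags. Kcnb2 encodes Kv2.2 of the delayed rectifier current, and its regions had 9 and 10 tags. Those in Kcnq3 had 6 and 12 tags, and the first of these, at a −log10 q of 2.06, was close to the bottom of the Otp list. Kcnh5, Kcnh7 and Kcnq1 held 1 each. In Kcnq1, a Kv7 channel of heart and epithelia in an imprinted domain, the region (chr7:143296576-143296745) had 12 tags (6.20 to 21.0) and a −log10 q of 7.79. Its summit lay 89 bp before the start of Kcnq1ot1, the long antisense RNA that silences neighbouring genes on the paternal chromosome, whose promoter sequence is given above. It was the single one of the 22 inside regions within 1 kb of an end of another annotated gene, and none of the 22 was within 1 kb of a start that RefSeq lists for its own gene. The count of such neighbours was made after the values were seen, and its share over all inside regions is not given here.

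In the other classes the inside regions were weak. The two-pore channels Kcnk2 (TREK-1, opened by stretch and lipids) and Kcnk9 (TASK-3, a leak channel closed by acid) had 10 tags (4.80 to 18.4) and 7 tags (2.81 to 14.4). The leak channel Kcnk3 had no region. In Kcnma1, the large-conductance channel that opens with calcium and voltage together, the 1 region (chr14:23783382-23783554) had 12 tags (6.20 to 21.0). In Kcnj10, the inside region had 9 tags (4.12 to 17.1).

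**Figure D4:**
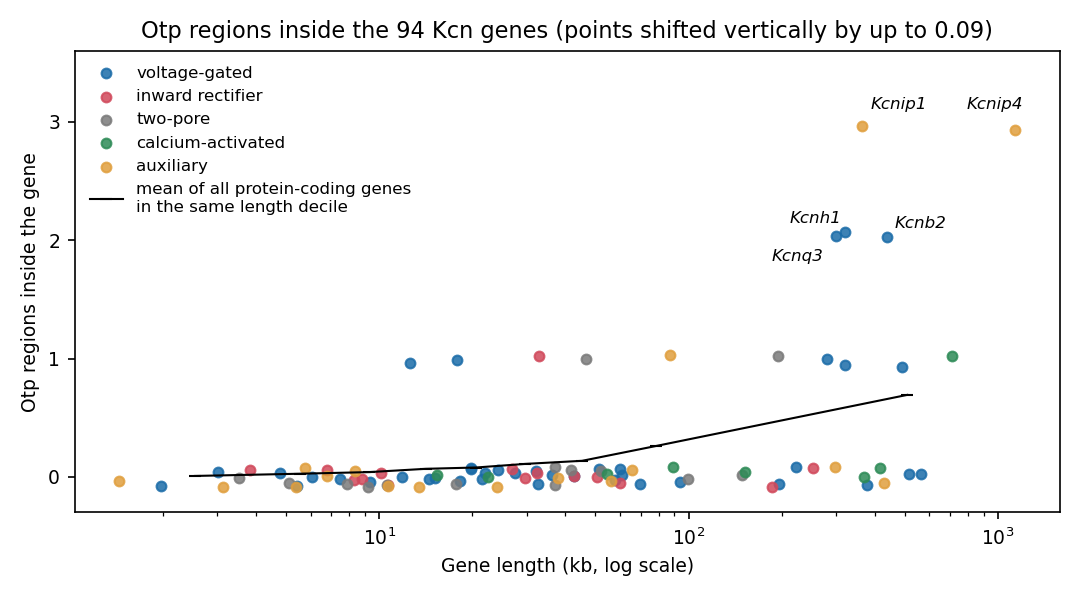
Number of Otp regions inside each of the 94 potassium channel genes (points, coloured by class) against gene length in kb on a log scale, with the mean of all protein-coding genes in the same length decile (line). Kcnip1 and Kcnip4 hold 3 each. Of the 23 genes over 100 kb long, 13 hold none and 10 hold at least 1. Of all protein-coding genes in the longest decile, 41.4% hold at least 1.

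The remaining 68 genes had no Otp region at an end or inside. Their median distance to the nearest Otp summit was 36758 bp (range 1122 to 823481 bp), against 63861 bp for the 14154 protein-coding genes without a region. Over 100 kb away were 11 of the 68 (16.2%), against 39.4%. Neither comparison was weighted to gene length.

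Genes of proteins that work with these channels, 19 in number, had end regions in 4 cases (21.1%, against 29.1% at the same lengths) and inside in 7 (36.8%, 16.3 to 61.6%, against 16.8%). Per Mb of gene interior they held 2.86 regions, against 2.64 at the same lengths. The highest were Vapb, an endoplasmic reticulum protein that binds Kv2 channels, with 23 tags and a fold enrichment of 11.4, and Calm3 with 24 tags and a fold enrichment of 7.78. Calm3 is 1 of 3 genes for calmodulin, the calcium sensor of SK and Kv7 channels, and Calm2 also had an end region. Cntn2, an adhesion molecule of Kv1 clusters on axons, had 13 tags. Abcc8, which encodes the sulfonylurea receptor that partners Kcnj11, had no end region and 2 inside. Abcc9, the partner of Kcnj8, had none of either kind.

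A share at gene ends below that of other genes was not seen in potassium channels alone. Sodium, calcium, HCN and TRP channel genes had end regions in 6 of 68 (8.82%, 3.31 to 18.2%), against 31.0% at the same lengths. Glutamate, GABA, glycine and nicotinic receptor genes had one in 9 of 69 (13.0%, 6.14 to 23.3%), against 30.2%. The intervals of all 3 families overlap.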

How the data were processed

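CUT&RUN was done on PVN nuclei with 1 Otp and 1 IgG library, grouped by the antibody label. Per the submitters' processing notes, the authors used Trimmomatic, Bowtie2, Picard, SAMtools and MACS2 with mouse build mm10. Their settings, whether duplicates were kept and whether IgG served as the caller's control are not stated here. Regions were called per library. The deposited fold enrichment is a ratio over the caller's background, and −log10 p and −log10 q are also as deposited. The deposited display score was not used.

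Tags came from fold and −log10 p by the MACS2 definitions, where a whole number matched within 0.001 and the next missed by over 0.005. This gave tags for 98.3% of Otp and 90.0% of IgG regions, among them all 36 of the Kcn genes. The genome background is the lowest value shared by at least 3 regions. Poisson and exact (Clopper-Pearson) binomial intervals are at 95% and cover counting error only, since PCR copies are not independent molecules.

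Gene positions and promoters are from RefSeq GRCm38.p6. Mitochondrial regions were left out. Length weighting used 10 bins. A listed start and strand were found for 69 of the 94 Kcn genes (73.4%), so the planned matching on promoter CpG is void, as fewer than 80% have a value. The scripts were tested on simulated data. Named genes were those with a region at an end, the 3 inside regions with the highest −log10 q per class, genes with 3 or more, and a list of channels of central neurons. Some members are counted but not reported by name here. Members, classes and lists were chosen with earlier results of these data known. Families, neighbours and the CCAAT search were chosen after values or sequences were seen. Software was Python 3.11.15 with pandas 2.3.3, numpy 2.4.6 and scipy 1.17.1.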

Additional observations from a re-analysis of the deposited data

How the results depend on the processing

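The count of 14 potassium channel genes with an Otp region at an end was 13 within 500 bp and stayed at 14 at a −log10 q of at least 5, at a fold enrichment of at least 5, without regions that overlap IgG, with each region given to the nearest protein-coding gene, with any overlap of the region, with 20 length bins (29.4% at the same lengths) and with all listed starts taken as ends, an alternative chosen after seeing the data. It moved at a −log10 q of at least 10, to 3 genes (Kcnn3, Kcnab2 and Kcnj2; 3.19%, against 14.4% at the same lengths), and within 5 kb, to 26 (27.7%, against 37.1%). Where the count stayed at 14, the share at the same lengths still changed. It was 25.2% with the −log10 q threshold of 5, 27.9% with the fold threshold of 5 and 26.2% with the nearest gene alone. It was 29.2% without IgG overlaps, 29.9% by any overlap and 32.6% with listed starts. Genes without a listed start could gain none in that last setting. Within 500 bp, the share was 13.8%, against 27.2%. Counting the start alone gave 9 of the 69 genes with a listed strand (13.0%, against 27.3% of all protein-coding genes with one). At a −log10 q of at least 10, 3 genes held an inside region (3.19%, against 4.72%). At that threshold 0 voltage-gated genes had an end region (14.7% at the same lengths). An end region was kept by 1 inward rectifier (6.67%, against 14.9%) and 1 calcium-activated gene (12.5%, against 14.6%). Within 5 kb, 13 voltage-gated (32.5%, against 37.8%), 3 two-pore and 3 auxiliary genes (17.6%, against 34.4%) had one. The two-pore count was already 0 in the main setting, so a stricter threshold or a window of 500 bp could only leave it at 0. Within 5 kb the two-pore share was 21.4%, against 37.1% at the same lengths. No potassium channel gene had an IgG region at an end or inside with a 5 kb window or by any overlap. Of all protein-coding genes, 0.667% and 0.603% had one. The stricter threshold keeps fewer regions and the wider window takes in more of the surroundings; other causes were not tested. Of 62 values under alternatives, 52 stayed within 1.5 times of the first and 10 moved farther. The 52 include values that could not change, such as those without regions that overlap IgG. For all potassium channel genes at an end, the share stayed below that of genes of the same length under every alternative with such a share; the inward rectifier share lay above it with −log10 q kept from 5 upward (26.7%, against 25.7%) and with the nearest gene alone (26.7%, against 26.1%). Total depth is unknown, and few tags limit all comparisons with IgG. No paired analysis was possible because there was a single library per antibody.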
